A study of Mus musculus with 19 samples.

Results

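The genes that encode the subunits of the mitochondrial respiratory chain and ATP synthase were followed across 19 mouse embryonic stem cell (mESCs) lines. They were taken by name from the protein coding genes of the count table: the mitochondrially encoded mt-Nd, mt-Co, mt-Cyt and mt-Atp genes, and the nuclear genes whose symbols begin with Ndufa, Ndufb, Ndufc, Ndufs, Ndufv, Sdha to Sdhd, Uqcr, Cox4 to Cox8 or Atp5. Assembly factors and Ndufa4l2 were left out. Of 101 such genes, 95 reached a mean of 1 CPM (counts per 1000000 counts of the line's scaled total) and were kept, out of 55416 genes in the table, and all 95 passed the filter on low counts and were tested. The members were 13 mitochondrially encoded and 82 nuclear genes, the nuclear ones being 38 of complex I, 4 of complex II, 8 of complex III, 15 of complex IV and 17 of ATP synthase (complex V). The kept genes with the lowest means were Cox7b2 (2.02 CPM), Cox7a1 (4.66 CPM) and Ndufb11b (10.0 CPM), and those left out with the highest were Cox5b-ps (0.998 CPM), Cox4i2 (0.795 CPM) and Cox8c (0.193 CPM).

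The embryos came from B6CBAF1/J females mated with B6CBAF1/J males. They were thus F2 embryos, which the study describes as differing genetically from each other. Each line had been grown from 1 blastomere taken at the 8-cell stage, and 1 poly-A RNA library was sequenced per line. There were 7 lines of embryo 3 (3.1 to 3.7), 7 of embryo 2 (2.1 to 2.7) and 5 of embryo 1 (1.1 to 1.5). No engineered allele is named for any line. All lines were derived in one medium, with serum replacement, leukemia inhibitory factor, the MEK inhibitor PD0325901 and the TGFβ inhibitor SB431542. Adrenocorticotropic hormone was added in the first week. Each blastomere was cultured in its own drop on inactivated human foreskin fibroblasts, and feeders were removed before RNA extraction. The study derived lines in several replicate experiments, and the labels do not give the experiment of an embryo. Embryo and derivation experiment therefore cannot be told apart. The study also sorted the lines by principal components of these same libraries into group I (1.1, 1.3, 1.4, 2.3 to 2.6 and 3.4 to 3.7, 11 lines) and group II (1.2, 1.5, 2.1, 2.2, 2.7 and 3.1 to 3.3, 8 lines), and the sample labels do not give these groups. Membership was read from the study's plot of those components, and for line 2.2 from its text. Because the groups were drawn from the expression values compared here, a p between them is too small to be taken at face value, describes how far genes follow that split, and is no independent evidence that the groups exist. The replicates are lines, and with 3 embryos a p between embryos measures the spread between lines of these embryos alone.

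Complexes I and II pass electrons from NADH and succinate to coenzyme Q, complex III passes them to cytochrome c, complex IV passes them to oxygen, and complex V uses the resulting proton gradient to make ATP. Complex II is wholly nuclear encoded, while each of the other complexes joins nuclear subunits to a few made inside the mitochondrion from its own circular genome. Mouse embryonic stem cells in naive culture are known to use both respiration and glycolysis.

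The table counts part of the mitochondrial genome in 2 places. Bases 6390 to 11042 of the mitochondrial genome have a near-identical copy in the nucleus at chr1:24650616-24655269 (GRCm39, minus strand), with 99.94% identity over 4653 bases, 2 mismatches and 1 gap base. The copied stretch holds mt-Co2, mt-Atp8, mt-Atp6, mt-Co3, mt-Nd3 and mt-Nd4l whole, with parts of mt-Co1 and mt-Nd4. The first 60 bases of mt-Co2, shown because reads from them do not differ between the places, are the same in the mitochondrial genome (M:7013-7072, plus strand) and in the copy (chr1:24654587-24654646, minus strand):
mt-Co2 start in both places: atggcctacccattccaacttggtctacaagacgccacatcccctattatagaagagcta
The mismatches, counted from the first base of the mitochondrial genome and with the mitochondrial base first, are A6393T in mt-Co1 and T9461C in mt-Nd3. The second is shown in capitals in 60 bases around it (M:9431-9490, plus strand, and chr1:24652169-24652228, minus strand), since it is the only base by which reads of mt-Nd3 could be told from its copy:
mitochondrial genome: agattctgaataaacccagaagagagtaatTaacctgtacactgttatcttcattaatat
chromosome 1 copy: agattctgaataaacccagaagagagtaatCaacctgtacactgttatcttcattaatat

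Most counts of 4 mitochondrial genes stood under the names of their chromosome 1 copies. Mean levels over the 19 lines were 118 ± 42.5 CPM for mt-Atp6, a proton channel subunit of ATP synthase, and 4490 ± 1041 CPM for its copy Gm10925 (SD, n = 19), so that the copy held 97.4% of the pair. The share in the copy was 97.3% for mt-Co3 (with Gm28437), 94.9% for mt-Co2 (with Gm28661) and 91.0% for mt-Nd3 (with Gm28438). It was 49.8% for mt-Nd4l, 5.39% for mt-Co1, the catalytic core of complex IV, and 0.00307% for mt-Nd4, while mt-Atp8 had no copy among the genes counted.

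**Figure D1:**
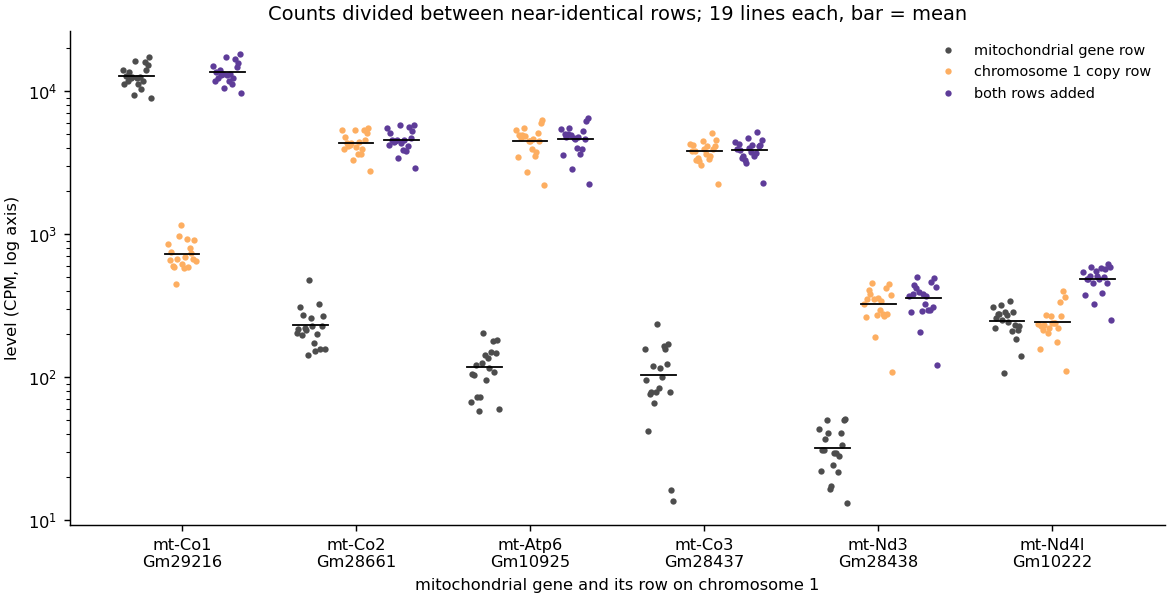
Level of each mitochondrial gene and of its chromosome 1 copy in the 19 lines (CPM, log axis, 1 point per line) for the 6 pairs whose copy had more than 1 CPM. The copy lies above the gene for mt-Co2, mt-Atp6, mt-Co3 and mt-Nd3, on a par with it for mt-Nd4l, and below it for mt-Co1.

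For 5 of the 7 pairs the sum with the copy had a narrower range over the lines than the gene by itself, while mt-Nd4 kept its 2.58-fold range and mt-Nd3 had a wider one (4.12-fold with its copy, 3.87-fold alone). By itself mt-Co3 ranged between 13.7 and 237 CPM over the lines, a 17.2-fold range, while the pair together ranged between 2261 and 5216 CPM, a 2.31-fold range. Per kilobase of transcript, mt-Co2 stood at 339 CPM alone and 6694 CPM with its copy, and mt-Co1 at 8294 CPM alone and 8766 CPM with its copy. Values of mt-Co2, mt-Atp6, mt-Co3, mt-Nd3 and mt-Nd4l by themselves are therefore given with this limit.

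The 13 mitochondrially encoded genes summed to 31236 ± 5613 CPM, or 3.12% of the counts, and to 45172 ± 7959 CPM, or 4.52%, with the copies (SD, n = 19). The sum averaged 31792 ± 3203 CPM over the 7 lines of embryo 3, 29386 ± 5127 CPM over the 7 of embryo 2 and 33047 ± 8738 CPM over the 5 of embryo 1. The lowest sums were those of line 1.5, with 18365 CPM, and line 2.1, with 21751 CPM, and the highest those of lines 1.4, 1.3 and 1.1, with 38944, 38211 and 38162 CPM, followed by line 2.2, with 37448 CPM. The embryos overlapped, and embryo 1 held both the lowest and the highest line. In bulk RNA such as this, fewer cells of a kind and less RNA per cell cannot be told apart.

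The 82 nuclear genes summed to 10147 ± 968 CPM (SD, n = 19) and varied less, between 8705 CPM in line 1.5 and 13099 CPM in line 1.1. Their sum averaged 10372 ± 408 CPM in embryo 3, 9571 ± 529 CPM in embryo 2 and 10641 ± 1606 CPM in embryo 1. The ratio of the mitochondrially to the nuclear encoded sum ran between 2.11 in line 1.5 and 4.13 in line 2.2. Line 1.5 stood below the median of its embryo in 12 of the 13 mitochondrial genes and 71 of the 82 nuclear ones, and line 1.1 stood above it in 80 of the 82 nuclear genes.

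**Figure D2:**
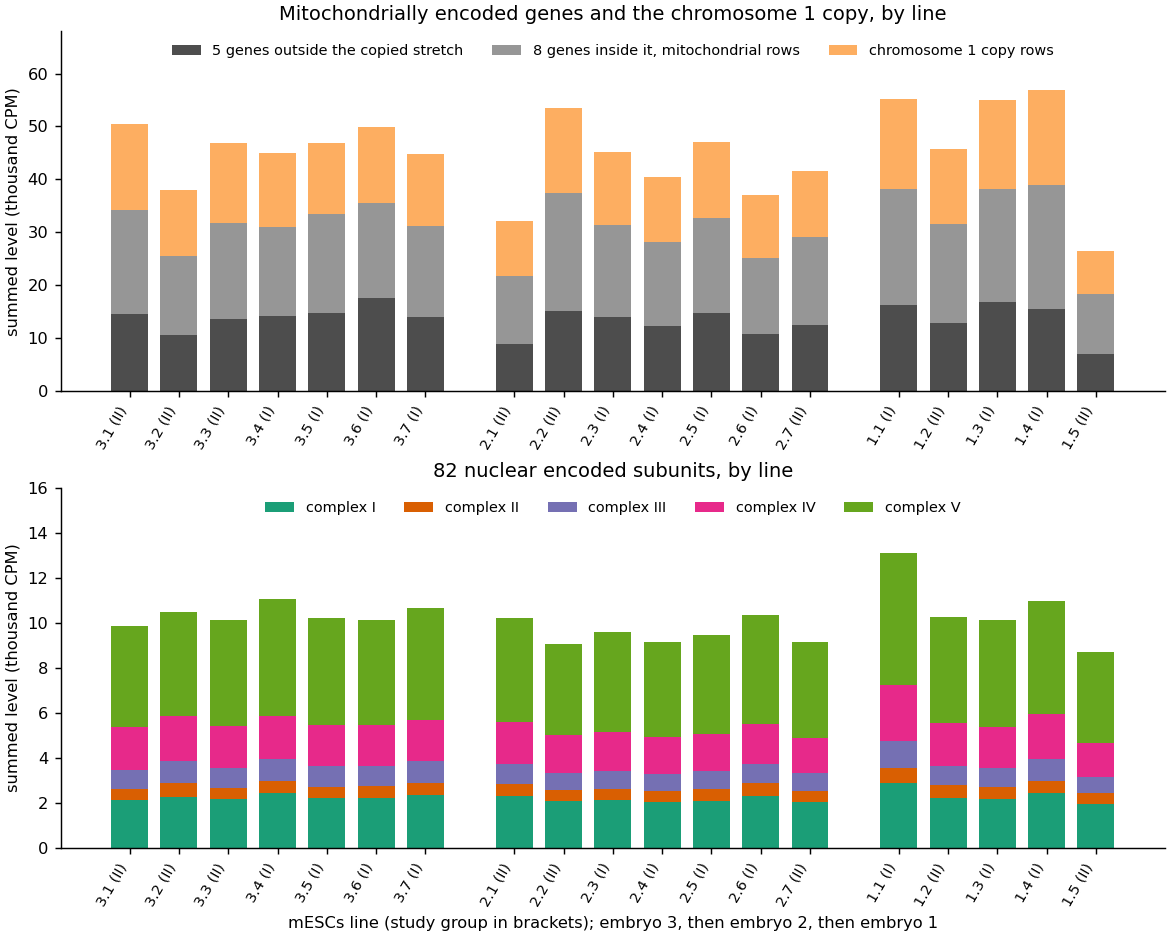
Summed level of the members in each line (CPM, stacked bars, embryo 3 then 2 then 1), above for the mitochondrial genes split into 5 genes outside the copied stretch, 8 genes inside it and the chromosome 1 copies, and beneath for the nuclear genes by complex. Line 1.5 has the lowest bar in both panels, with sums of 18365 CPM for the mitochondrial genes and 8705 CPM for the nuclear ones, and line 1.1 the highest nuclear bar, 13099 CPM.

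Among lines of the same embryo the median SD on the log2 scale was 0.382 for the 13 mitochondrial genes and 0.18 for the 82 nuclear ones. Over 8985 protein coding genes of 10 CPM or more the same median was 0.184, so the nuclear subunits were spread about as much as other genes of their level. The widest members were mt-Co3 (0.968), whose counts are split with its copy, and Cox7b2 (0.646).

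Levels between genes are compared per kilobase of each gene's canonical transcript, taken from a later annotation release than the study's. A gene whose canonical transcript is longer than the one expressed comes out too low. Counted without the chromosome 1 copies, mt-Co1 stood highest at 8294 CPM per kilobase, followed by the genes mt-Nd1, a core subunit of complex I (4617), mt-Atp8 (3418) and mt-Cytb, the cytochrome b core of complex III (3249). The complex I genes mt-Nd4, mt-Nd2 and mt-Nd5 had 2564, 2083 and 1619 CPM per kilobase, and mt-Nd6 had 408. With the copies added, mt-Atp6 (6767), mt-Co2 (6694) and mt-Co3 (4981 CPM per kilobase) stood between mt-Co1 and mt-Nd1. Among nuclear genes the β and α subunits of the catalytic head of ATP synthase, Atp5b and Atp5a1, led with 836 and 461 CPM per kilobase, followed by the complex IV genes Cox7c (409) and Cox4i1 (394). By this measure the highest of complexes I, II and III were Ndufb8 (145), Sdhd (86.5) and Uqcr10 (168). The lowest of complexes I, II, III and V were Ndufb2 (5.54), Sdhb (20.4), Uqcr11 (23.7) and Atp5mpl (14.4). Both ends of this order depend on the transcript length taken.

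Where a subunit has isoforms, the form found in most tissues was the main one in these lines. Per kilobase, Cox7a2 had 112 CPM and the muscle form Cox7a1 10.6 CPM, Cox7b had 111 CPM and the testis-type form Cox7b2 0.967 CPM, and Cox6b1 had 151 CPM and Cox6b2, also best known from testis, 41.3 CPM. The c subunit of the ATP synthase rotor, which the mouse encodes in 3 genes, came from Atp5g2 (254 CPM per kilobase), Atp5g3 (240) and Atp5g1 (206). Of the forms that fell under 1 CPM, Cox4i2, known from lung, ranged between 0.108 and 1.97 CPM and was counted in every line, while Cox6a2, of heart and muscle, was at 0 in 4 lines and had at most 6 counts, and Cox8b was at 0 in 17 lines and had at most 1 count. Their counterparts Cox4i1, Cox6a1 and Cox8a had lowest values of 212, 105 and 119 CPM.

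The first question was whether the chain differed between the embryos. With both an adjusted p under 0.05 and more than 1.5-fold required, embryo 2 differed from embryo 1 in 3 of the 95 members (3.16%), beside 4.35% of all 18878 genes tested, and at an adjusted p under 0.05 alone in 6 members (6.32%), beside 5.95% of all genes. Both shares are near those of all genes. The 3 were mt-Nd6, Cox7b2 and Ndufb11b, and the others Ndufa6, Ndufab1 and Cox6b2. Over the 3 embryos in 1 test, 7 members (7.37%) passed at an adjusted p under 0.05, beside 13.6% of all genes. Among all members, 81 of 95 had a log2 fold change below 0 and the median was -0.18, beside -0.01 over all genes. The median was -0.08 without line 1.1 and -0.26 without line 1.5.

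mt-Nd6, a membrane-arm subunit of complex I and the only member read from the light strand of the mitochondrial genome (M:13552-14070), had 138 CPM in the lowest, 162 CPM in the median and 279 CPM in the highest line of embryo 2. In embryo 1 it had 274, 243, 273, 289 and 292 CPM in lines 1.1 to 1.5. Only line 2.2, with 279 CPM, overlapped embryo 1. Its log2 fold change was -0.65 ± 0.15 (SE), with an adjusted p of 0.00969 by edgeR's quasi-likelihood test, and it was kept when any single line was left out, with adjusted p between 7.19e-05 and 0.0284. Without lines 1.5 and 2.4 together the log2 fold change was -0.58, just under 1.5-fold, with an adjusted p still under 0.05. In embryo 3 it had 135, 199 and 238 CPM in the lowest, median and highest line. The gene overlaps mt-Nd5, on the other strand, only at M:13552-13565. The study states default parameters for RSEM, which do not use strand. Reads of either strand along all of mt-Nd6 could therefore count for it. How much of its level comes from the light-strand transcript cannot be told from these counts.

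Cox7b2, a testis-type form of the complex IV subunit Cox7b (chr5:71598701-71705630), had 2.01, 2.88 and 4.59 CPM in the lowest, median and highest line of embryo 2, and 0.345, 0.734, 0.44, 0.499 and 0.965 CPM in the lines of embryo 1. Every line of embryo 2 lay above every line of embryo 1, at low levels, with a log2 fold change of 2.31 ± 0.66 and an adjusted p of 0.0428. In embryo 3 it stood between 0.563 and 1.03 CPM in 6 lines and at 9.73 CPM in line 3.4. The adjusted p rose to as much as 0.102 when any 1 of 10 lines was left out (1.1 to 1.4 and 2.2 to 2.7), with log2 fold changes of 2.17 to 2.56.

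Ndufb11b (chr15:81864741-81865764), whose symbol is that of the X-linked complex I gene Ndufb11 with a suffix, shares 15.7% of its 51-base stretches with other genes. It had 8.92, 10.7 and 20.9 CPM in the lowest, median and highest line of embryo 2 and 10.8, 7.27, 6.47, 6.61 and 4.96 CPM in the lines of embryo 1, so the embryos overlapped through line 1.1. Its log2 fold change was 0.84 ± 0.24 (adjusted p = 0.0409). Leaving out any 1 of 8 lines (1.2 to 1.5, 2.2, 2.4, 2.6 or 3.1) took the adjusted p to at most 0.098.

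Ndufa6, an accessory subunit of complex I, had 48.3, 49.9 and 59.7 CPM in the lowest, median and highest line of embryo 2, against 70.6, 58.9, 59.8, 66.4 and 56.1 CPM in embryo 1. The log2 fold change was -0.28 ± 0.07 (adjusted p = 0.0284), and the overlap came from lines 2.1, 1.2 and 1.5. Ndufab1, the mitochondrial acyl carrier protein, had 63.2 to 70.0 CPM in embryo 2 and 71.7 to 84.3 CPM in embryo 1, without overlap (log2 fold change -0.23 ± 0.07, adjusted p = 0.0428). Cox6b2 (chr7:4754789-4756093) had 18, 19.8 and 28.6 CPM in the lowest, median and highest line of embryo 2 and 27.1 to 35.7 CPM in embryo 1, and only line 2.1 overlapped. Its log2 fold change was -0.53 ± 0.15 (adjusted p = 0.0459). Leaving out 1 line ended the call of Ndufa6 for 7 lines (1.1, 1.4 and 2.3 to 2.7, adjusted p at most 0.086). It ended that of Ndufab1 for 11 lines (1.1 to 1.4, 2.2 to 2.5, 2.7, 3.5 and 3.7, at most 0.12) and that of Cox6b2 for 13 (1.1, 1.2, 1.4, 1.5, 2.2 to 2.7, 3.1, 3.5 and 3.7, at most 0.127).

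Leaving out line 1.5, the line with the lowest sums, raised the number of members at an adjusted p under 0.05 to 19, with 18 of them lower in embryo 2, and of the 3 genes past 1.5-fold Ndufb11b was then replaced by mt-Nd3. The count over all genes in that fit is not given here. Without lines 1.5 and 2.4 together, 13 members passed at an adjusted p under 0.05, all lower in embryo 2, beside 1063 of 19061 genes.

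**Figure D3:**
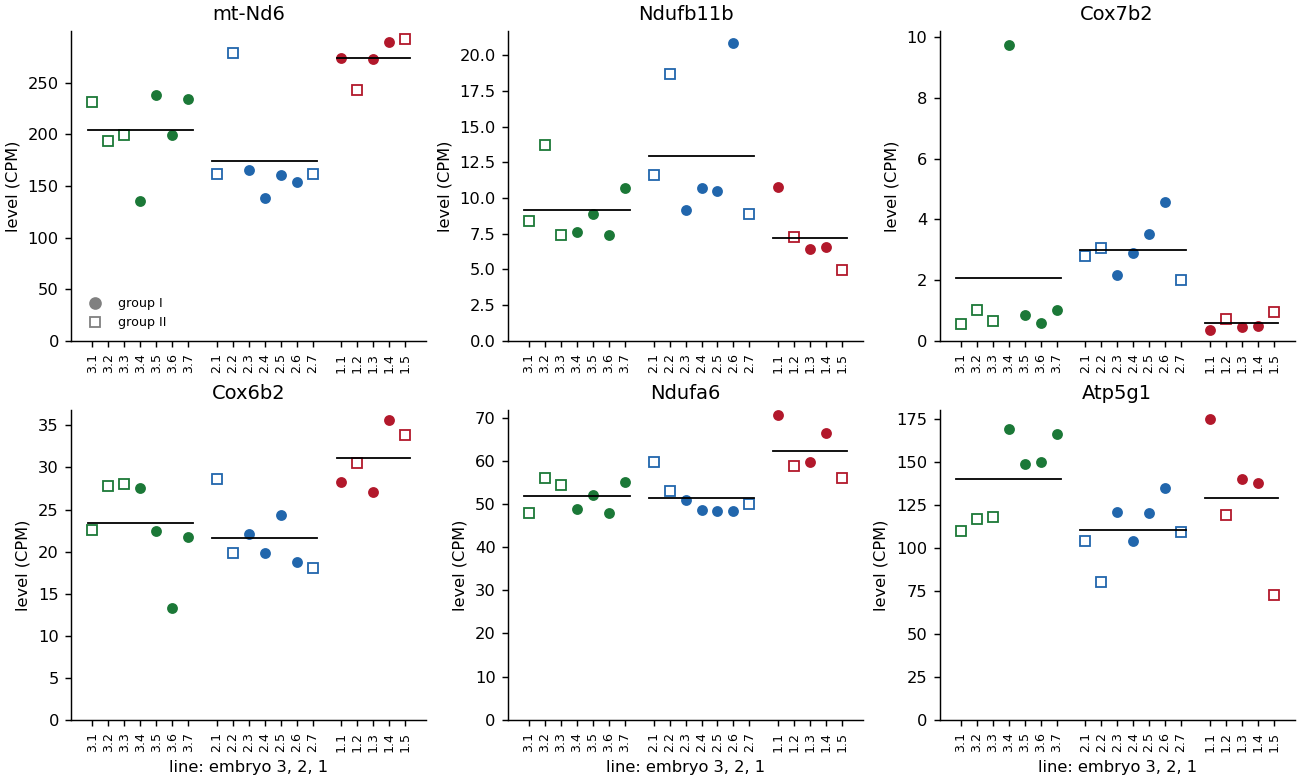
Level of 6 members in each line (CPM, linear axes from 0), with embryo 3 at the left, then embryo 2 and embryo 1. Filled circles are lines of group I, open squares lines of group II, and bars the mean of each embryo. Line 2.2 stands apart for mt-Nd6 at 279 CPM, and line 3.4 for Cox7b2 at 9.73 CPM.

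Embryo 3 differed from embryo 1 in 0 of the 95 members past 1.5-fold, beside 5.45% of all genes, and in 2 members (2.11%) at an adjusted p under 0.05 alone by edgeR, beside 8.19% of all genes. At an unadjusted p under 0.05 there were 11, beside 4863 of the 18878 genes tested. DESeq2 also found 0 past 1.5-fold and the same 2 without the fold threshold. Ndufa6 had 47.8, 52.1 and 56.1 CPM in the lowest, median and highest line of embryo 3, and the embryos met only at lines 3.2 and 1.5, both at 56.1 CPM (log2 fold change -0.27 ± 0.07, adjusted p = 0.031). The call was lost without 1.1, 1.4, 3.1, 3.4, 3.5 or 3.6 (adjusted p at most 0.0756). Ndufb1, an accessory subunit of the membrane arm, had 20.1, 21.6 and 24.9 CPM in embryo 3 and 31.1, 23.8, 22.9, 32.1 and 25.0 CPM in embryo 1, which overlapped, with a log2 fold change of -0.31 ± 0.09 (adjusted p = 0.0433). Leaving out any 1 of 11 lines (1.1, 1.4, 2.3 to 2.5, 2.7, 3.1, 3.3 to 3.5 or 3.7) ended this call (adjusted p at most 0.125). Embryo 1 is shared with the comparison of embryo 2, so the results for Ndufa6 are not separate.

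Embryo 3 differed from embryo 2 in 0 members past 1.5-fold by edgeR, beside 5.63% of all genes, and in 4 (4.21%) at an adjusted p under 0.05 alone, beside 8.25% of all genes. At an unadjusted p under 0.05 there were 19, beside 4655 of the 18878 genes tested. DESeq2 placed 2 members past 1.5-fold, Cox7b2 and mt-Atp6, both lower in embryo 3. By edgeR mt-Atp6 had a log2 fold change of -0.69 alone, and 0.27 ± 0.17 with the counts of its copy added (adjusted p = 0.335). The median log2 fold change was 0.11, beside 0.00 over all genes, and 79 of 95 members were above 0.

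Uqcrc1, a core protein of complex III, had 266, 286 and 322 CPM in the lowest, median and highest line of embryo 3 and 206, 222 and 261 CPM in embryo 2, without overlap (log2 fold change 0.34 ± 0.09, adjusted p = 0.0238, and at most 0.0577 without line 2.4 or 3.7). Cox7c had 219, 228 and 353 CPM in embryo 3 and 175, 181 and 212 CPM in embryo 2, again without overlap, with 353 CPM in line 3.2 (log2 fold change 0.37 ± 0.10, adjusted p = 0.0311, and at most 0.0624 without line 2.3, 2.4, 2.5 or 2.7). The other 2 genes were lower in embryo 3 and are X-linked accessory subunits of complex I. Ndufa1 had 20.6, 22.0 and 25.9 CPM in embryo 3 and 22.9, 27.6 and 44.3 CPM in embryo 2 (log2 fold change -0.51 ± 0.13, adjusted p = 0.0189). Ndufb11 had 45.5, 50.6 and 52.7 CPM in embryo 3 and 48.8, 57.3 and 102 CPM in embryo 2 (log2 fold change -0.45 ± 0.13, adjusted p = 0.0411). Both were overlapping, with lines 2.1 and 2.6 far above the others. Leaving out line 2.1 took Ndufa1 to an adjusted p of 0.052, and leaving out 1 of 11 lines (1.2, 2.1, 2.6, 2.7 or any of embryo 3) took Ndufb11 to at most 0.103.

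The second question was whether the chain differed between groups I and II, with embryo in the model. No member passed 1.5-fold (0 of 95, beside 12.1% of all 19265 genes tested) by edgeR or DESeq2, and 21 (22.1%) passed at an adjusted p under 0.05 alone, beside 27.0% of all genes. At an unadjusted p under 0.05 there were 29, beside 7728 of the 19265 genes. Of the 21, 19 were higher in group I (12.7% of all genes were) and 2 were lower (14.2% of all genes). The median log2 fold change was 0.10 over the members, 0.21 over the 13 mitochondrial genes and -0.01 over all genes, and 75 of the 95 members were above 0. Without line 1.5 the median was 0.06 over the members and 0.11 over the mitochondrial genes. The mitochondrial sum averaged 33070 ± 4370 CPM over the 11 lines of group I, against 28715 ± 6419 CPM over the 8 lines of group II, and the nuclear sum 10447 ± 1067 CPM in group I, against 9736 ± 671 CPM in group II, overlapping in both.

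ATP synthase carried the smallest adjusted p of the members. Atp5g1 (chr11:95959678-95966757), one of the genes for the rotor's c subunit, had 104, 140 and 175 CPM in the lowest, median and highest line of group I, against 72.8, 109 and 119 CPM in group II. The groups overlapped through line 2.4 of group I, at 104 CPM, and the other 10 lines of group I lay above every line of group II. Its log2 fold change was 0.45 ± 0.09 (adjusted p = 0.00172). Of the 17 nuclear genes of complex V, all 17 were above 0 and 5 passed: Atp5g1, and the small membrane subunits Atp5k (0.27), Atp5mpl (0.26), Atp5md (0.25) and Atp5l (0.22, log2 fold change in each case). The other c subunit genes, Atp5g2 and Atp5g3, did not pass.

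In complex I, 8 nuclear genes rose in group I and 2 fell. Those that rose included core subunits of the peripheral arm, which takes electrons from NADH: Ndufs1, which holds iron-sulphur clusters, had a mean of 143 CPM in group I, against 123 CPM in group II (log2 fold change 0.22 ± 0.05, adjusted p = 0.00339), and Ndufs3 had 63.7 and 53.7 CPM in groups I and II (0.24 ± 0.06, adjusted p = 0.00546). Ndufv1, which binds NADH, and the iron-sulphur subunit Ndufs8 rose by 0.19 and 0.23 on the log2 scale. The accessory subunits that rose were Ndufb6 (0.31), Ndufa11 (0.26), Ndufa9 (0.22) and Ndufa10 (0.16).

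Ndufv3, a small accessory subunit beside the NADH-binding site (chr17:31739052-31751735), fell. It had 57.4 ± 13.7 CPM over the 11 lines of group I (SD), against 74.1 ± 7.06 CPM over the 8 of group II, with a log2 fold change of -0.40 ± 0.10 (adjusted p = 0.00675). Within embryo 3 the groups did not overlap, with 41.2 to 61.5 CPM in group I and 66.8 to 79.0 CPM in group II, while in embryo 1 the highest line was of group I (line 1.1, 91.1 CPM). Ndufa13, an accessory subunit of the membrane arm on chromosome 8, had means of 55.8 CPM in group I, against 65.7 CPM in group II (-0.24 ± 0.08, adjusted p = 0.0272). This call was lost without line 1.2, 2.2 or 3.1 (adjusted p at most 0.0661).

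In the other complexes few members passed. They were Sdhd, the haem-binding anchor of complex II (116 CPM in group I, against 99.2 CPM in group II, log2 fold change 0.22), the complex III hinge protein Uqcrh (0.21) and Cox5a of complex IV (216 CPM in group I, against 180 CPM in group II, 0.25). All 8 nuclear genes of complex III were above 0, as were 10 of the 15 of complex IV. Omitting 1 line ended the call for Uqcrh in 10 of 19 omissions (1.2, 1.5, 2.2 to 2.5, 2.7, 3.1, 3.2 and 3.4, adjusted p at most 0.112), for Atp5l in 8 (1.2, 1.4, 1.5, 2.3, 2.7, 3.1, 3.2 and 3.4, at most 0.107), for Ndufa9 in 8 (1.1, 1.4, 1.5, 2.2, 2.5 and 3.1 to 3.3, at most 0.105) and for Ndufs8 and Atp5md without line 1.5 (0.0555 and 0.0626). Beside these and Ndufa13, the nuclear calls kept an adjusted p under 0.05 in all 19 omissions.

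Of the 13 mitochondrial genes, 10 were above 0 and 3 passed, all higher in group I. mt-Nd1 had 3671 to 6286 CPM in group I, against 2186 to 5050 CPM in group II, with means of 4927 ± 817 CPM in group I, against 3719 ± 965 CPM in group II (log2 fold change 0.40 ± 0.12, adjusted p = 0.0212, kept without any single line). mt-Cytb had means of 4164 ± 652 CPM in group I, against 3102 ± 905 CPM in group II (0.42 ± 0.15, adjusted p = 0.0441), and its lowest line was line 1.5 with 1376 CPM. mt-Nd3 had means of 36.8 CPM in group I, against 25.6 CPM in group II (0.50 ± 0.17, adjusted p = 0.039), and with the counts of its copy added 0.54 ± 0.15 (adjusted p = 0.0101). The call was lost in 9 of 19 omissions for mt-Cytb (1.1, 1.3 to 1.5, 2.1, 2.3, 2.5, 3.2 and 3.6, adjusted p at most 0.0838) and in 11 for mt-Nd3 (1.3 to 1.5, 2.1, 2.2, 2.4, 2.5, 3.2, 3.3, 3.6 and 3.7, at most 0.0784).

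**Figure D4:**
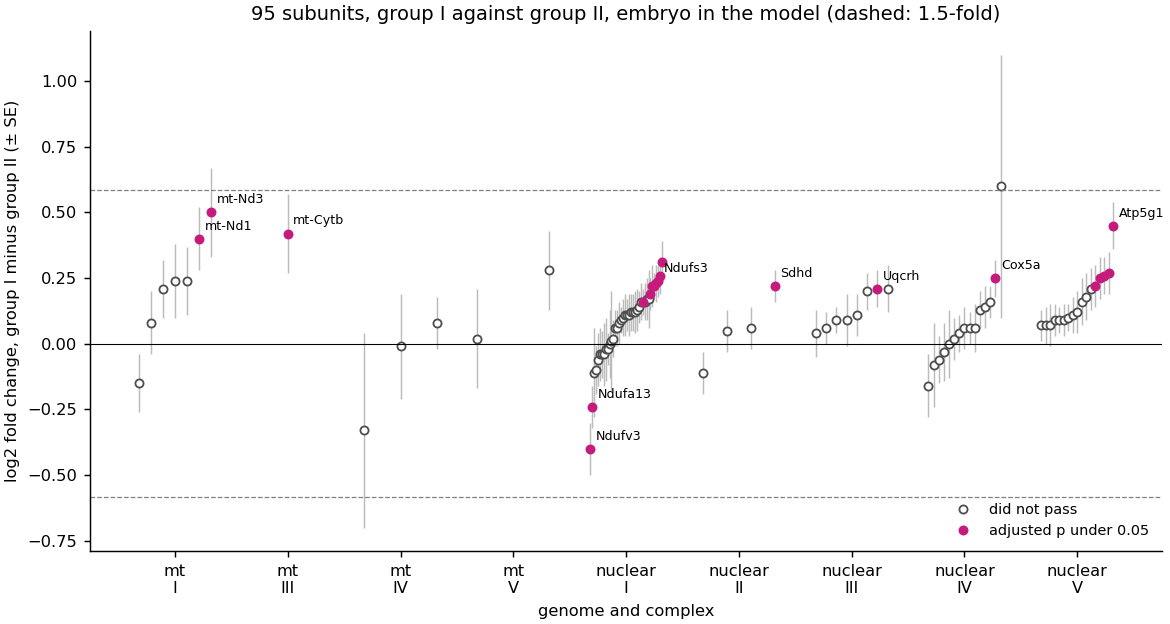
Log2 fold change of group I over group II for the 95 members, by genome and complex (points, with bars of 1 SE; filled points have an adjusted p under 0.05, and dashed lines mark 1.5-fold). No filled point lies outside the dashed lines, and all 17 nuclear genes of complex V and all 8 of complex III lie above 0.

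No member passed the test of whether the group difference differs among embryos. With each embryo fitted its own difference, embryo 3 had 2 members at an adjusted p under 0.05 (2.11%, beside 7.1% of 20333 genes), embryo 2 had 0 (beside 1.05%) and embryo 1 had 9 (9.47%, beside 4.15%). At an unadjusted p under 0.05 there were 15, 1 and 54 members in embryos 3, 2 and 1. Beside them stood 5100, 3669 and 4625 of the 20333 genes. The members' median log2 fold change was 0.08 in embryo 3, 0.02 in embryo 2 and 0.32 in embryo 1, and that of the 13 mitochondrial genes was 0.10, -0.02 and 0.76 in embryos 3, 2 and 1. In embryo 1 the 9 were Atp5md, Atp5g1, Atp5k, Atp5l, Atp5mpl, Ndufb6, Ndufb9, Ndufa11 and Cox6b1, all higher in group I (beside 1.02% of all genes), and 90 of 95 members were above 0. Its group II holds only lines 1.2 and 1.5, and line 1.5 had the lowest sums. In embryo 3 Ndufs3 was higher (0.33) and Ndufv3 lower (-0.57). By that interaction test 0 of 95 members passed in edgeR and in DESeq2 (beside 0.0393% of all genes, the lowest adjusted p being 0.316 for mt-Atp6). At an unadjusted p under 0.05 there were 14 members, and the count over all genes is not given here.

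Markers of other cells moved with the groups. Of 12 fibroblast genes, 9 were higher in group I and 0 lower, 8 of them past 1.5-fold (Vim 0.60 and Dcn 1.00 on the log2 scale), and their sum was 782 to 1422 CPM (median 1157) in group I and 455 to 888 CPM (median 651) in group II, with all 12 above 0 in at least 1 line. The feeders were human and reads were placed on the mouse genome. When the mean log2 level of 5 of these genes (Dcn, Lum, Col1a1, Col1a2 and Col3a1) entered the model, 0 of 95 members and 0 of 19709 genes passed between the groups. The median log2 fold change in that fit was 0.14 over the nuclear members, against 0.10 without the term, and 0.04 over the mitochondrial genes, against 0.21. Stem cell markers were present in every line, with sums of 3878 to 5580 CPM in group I and 3215 to 4539 CPM in group II, and 5 of 10 were higher in group I. Of the trophectoderm markers 1 of 10 was higher in group I, and of the 8 primitive endoderm markers tested 4 were higher and 1 lower. Pdgfra is in both the fibroblast and the primitive endoderm list, so these lists are not separate. The part of these markers in the results was not tested further.

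Lists of genes that serve the chain were counted between the groups at an adjusted p under 0.05, where 12.7% of all genes were higher and 14.2% lower, 27.0% in all. Mitochondrial ribosomal proteins, which translate the 13 mitochondrial mRNAs, were higher in group I in 40 of 78 and lower in 0, with a median log2 fold change of 0.19. Mrps2 averaged 97.7 CPM in group I, against 76.4 CPM in group II (0.36). Of the genes for mitochondrial RNA processing 7 of 18 were higher and 0 lower, led by the tRNA-processing nuclease Elac2 (0.42). Of those for mitochondrial DNA replication and transcription 4 of 14 were higher, among them the helicase Twnk (0.21), and 2 were lower, Primpol (-0.74) and Top1mt (-0.51).

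Assembly factors were higher in group I in 3 of 15 for complex I (Acad9, 0.35), 1 of 4 for complex II (Sdhaf2, 0.23), 1 of 6 for complex III (Uqcc3, 0.61), 5 of 20 for complex IV (Coa4, 0.39) and 1 of 3 for ATP synthase (Atpaf1, 0.29). The only assembly factor lower in group I was Lyrm7 of complex III (-0.40). In both directions together, 20.0%, 25.0% and 25.0% of the factors of complexes I, II and IV passed, which is under the share of all genes, and 33.3% each of the few of complex III and ATP synthase. Of the genes for electron carriers and coenzyme Q synthesis 5 of 17 were higher and 3 lower, of the tricarboxylic acid cycle 4 of 14 higher and 1 lower (Idh2, -0.25), and of the uncouplers and alternative oxidases 1 of 7 higher (Slc25a4, 0.32), or 14.3%. Of 9 biogenesis regulators tested 2 were higher and 1 lower, and Myc averaged 26.6 CPM in group I, against 12 CPM in group II (1.17).

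Larger differences were measured outside the chain. Of 18 glycolysis genes, 16 were lower in group I and 0 higher, 11 past 1.5-fold, with a median log2 fold change of -0.82. Pfkl, a phosphofructokinase, averaged 221 CPM in group I, against 481 CPM in group II (-1.20). All 9 genes that hypoxia is known to switch on in or around the mitochondrion were lower in group I, 7 past 1.5-fold. They include the alternative subunits that the rule left out: Ndufa4l2 averaged 5.53 CPM in group I, against 28.1 CPM in group II (-2.75), and Cox4i2 averaged 0.418 CPM in group I, against 1.31 CPM in group II (-1.70). Their main counterparts Ndufa4 and Cox4i1 did not pass. Between embryos, at the same threshold, at most 2 genes passed in each of these lists of mitochondrial and glycolytic genes, and among the cell markers the largest count was 5 of 10 trophectoderm markers higher in embryo 3 than in embryo 1.

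Some members stood apart in single lines together with their neighbours on a chromosome. Chromosome 8 in line 2.2 was looked at because of earlier results of these data, and the choice of the other lines and chromosomes was made with their values in view. For each line the median log2 difference from the sister lines of its embryo was taken over genes of 5 CPM or more in windows of 20 Mb with 20 or more genes, and 41 of 2584 such values (1.59%) lay past 0.4 in either direction, in 12 of the lines. No cause of these shifts was tested.

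On chromosome 13, line 3.2 stood 0.60, 0.74 and 0.48 above its sisters in the windows between 60 and 120 Mb, and 5 members there lay above every sister. Sdha, the flavoprotein of complex II, had 382 CPM in line 3.2 and 228 to 258 CPM in its sisters, and Cox7c had 353 CPM against 219 to 246 CPM. Ndufs6 had 90.6 CPM against 54.8 to 58.4 CPM in the sisters, Uqcrb 111 CPM against 70.4 to 79.8 CPM, and Ndufs4 71.2 CPM against 43.1 to 51.3 CPM. The excess of the 5 was 0.55 to 0.68 on the log2 scale. Uqcrfs1, nearer the other end of the chromosome, had 87.6 CPM in line 3.2, within its sisters' 80.8 to 98.6 CPM.

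On chromosome 8, genes were raised along the whole chromosome in lines 2.2 (median 0.44) and 3.1 (0.36), and the 3 members there were above every sister in both lines. Ndufa13 had 75.4 CPM in line 2.2 and 49.7 to 60.8 CPM in its sisters, and 79.0 CPM in line 3.1 against 55.9 to 69.1 CPM. Ndufb7 had 70.2 CPM in line 2.2 against 47.2 to 61.7 CPM, and Cox4i1 had 402 CPM in line 3.1 against 279 to 350 CPM. The other pairs were close: Cox4i1 had 330 CPM in line 2.2 against 243 to 326 CPM. Ndufb7 had 58.3 CPM in line 3.1 against 44.8 to 57.4 CPM. Both lines are of group II. Without either of them Ndufa13 still had a log2 fold change of -0.20 between the groups, and its adjusted p was no longer under 0.05, as was also so without line 1.2 (-0.22).

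On chromosome 6, line 1.4 was low between 0 and 80 Mb (by 0.68 to 0.81 on the log2 scale), line 3.5 between 20 and 80 Mb and line 3.7 between 0 and 100 Mb, and line 3.4 was high beyond 100 Mb. Ndufa4, in the first window, had 58.2 CPM in line 3.7, 94.3 CPM in line 3.5 and 57.7 CPM in line 1.4, where line 3.5 was not shifted in that window. Ndufa5 had 17.0, 14.7 and 15.3 CPM in lines 3.7, 3.5 and 1.4. Ndufa9, beyond 120 Mb, had 120 CPM in line 3.4 and 60.5 to 95.2 CPM in the others.

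On the X chromosome, lines 2.1 and 2.6 were high between 20 and 60 Mb. Ndufa1 had 43.9 and 44.3 CPM in lines 2.1 and 2.6 and 20.6 to 33.2 CPM in the 17 others, and Ndufb11 had 90.4 and 102 CPM against 45.5 to 70.4 CPM. Cox7b, farther along the chromosome, had 110 and 109 CPM in the same lines, within the 90.9 to 179 CPM of the others. Both lines are of embryo 2, where Ndufa1 and Ndufb11 stood above embryo 3.

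**Figure D5:**
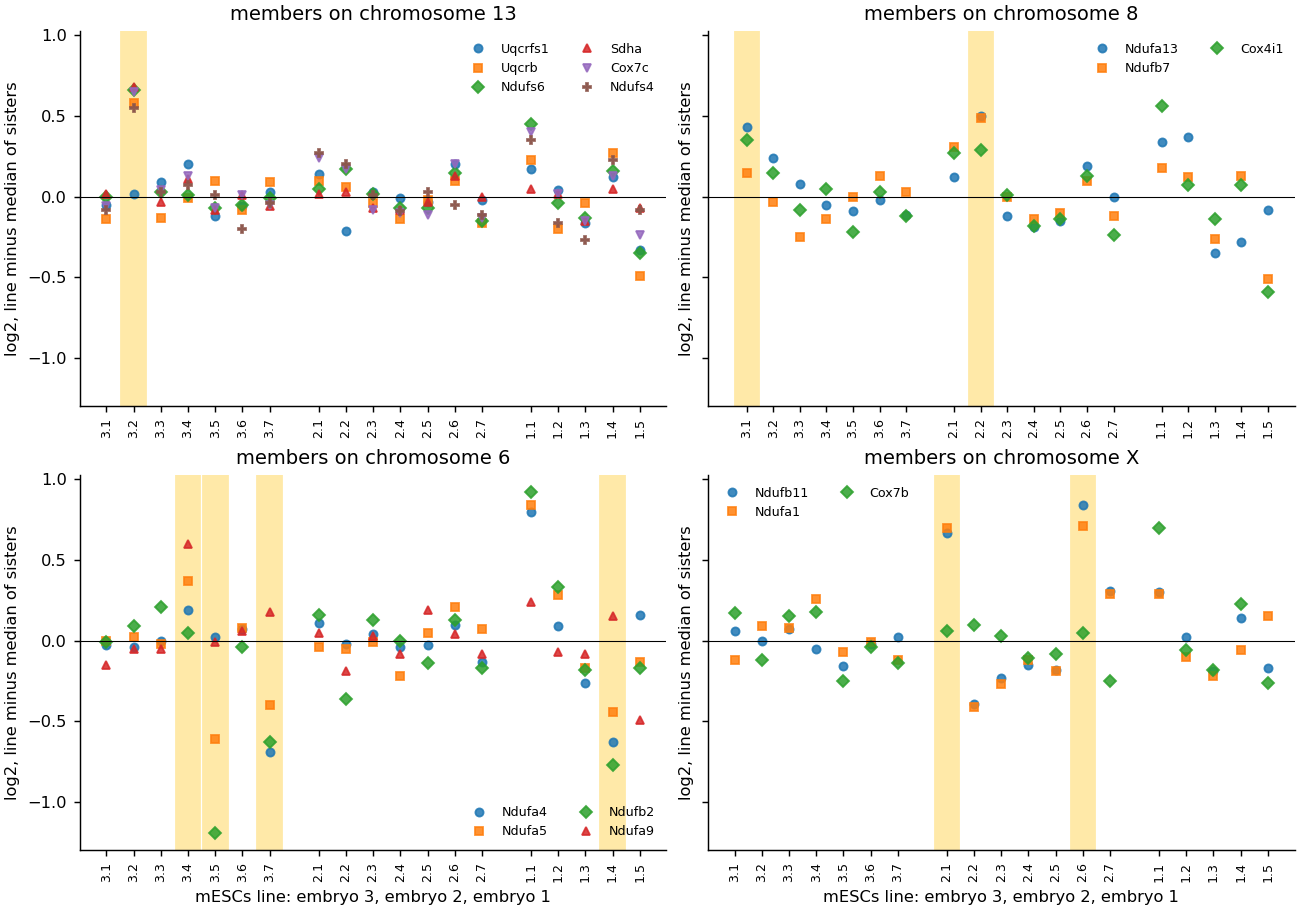
Log2 level of each member on chromosomes 13, 8, 6 and X in every line, minus the median of the sister lines of its embryo. Shaded lines are those named for each chromosome. On chromosome 13, 5 of 6 members stand 0.55 to 0.68 above 0 in line 3.2, and Uqcrfs1 stands at 0.02.

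Lines 2.2 and 3.1 (chromosome 8), 3.2 (13), 3.6 (14) and 3.7 (6) had whole-chromosome medians at least 0.36 from their sisters. Lines shifted over part of chromosome 6 (1.4, 3.4 and 3.5) were kept. Without lines 2.2, 3.1, 3.2, 3.6 and 3.7, 1 member (mt-Nd1) passed between the groups at an adjusted p under 0.05, beside 1193 genes in all. Then 0 of the 4 nuclear genes passed between embryos 3 and 2. Past 1.5-fold, calls over all genes between these embryos fell from 1062 of 18878 to 362 of 19120. Between the groups the median log2 fold change was then 0.14 over the members and 0.32 over the mitochondrial genes, against 0.10 and 0.21 with all lines. These fits hold fewer lines.

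Promoters were looked at because members moved together in small steps. RefSeq promoters of GRCm38.p6 (300 bases each, most of them before the annotated start) were found for 69 of the 82 nuclear members, giving 74 windows, and were searched on both strands for the motifs of 3 factors known from nuclear mitochondrial genes. The NRF1 motif, searched by 9 of its letters as GCGCATGCG, was found in 8 of 74 windows (10.8%), against 1.75% of 32851 promoters. The ETS-type motif CCGGAAGT, bound by GABPA, was found in 5 (6.76%), against 3.89%, and the YY1 motif AAGATGGCG in 7 (9.46%), against 1.4%. These are matches of letters only. Of the holders of the NRF1 motif, Atp5g2, Cox6a1, Ndufa8, Uqcr11 and Uqcrc1 did not pass between the groups. Nor did Atp5h, Cox8a and Uqcr11 for the ETS-type motif, or Atp5j, Atp5j2, Ndufc1, Ndufs4, Ndufs6 and Ndufs7 for YY1. Whether the motifs go with the group difference was not tested. Of the genes that passed between the groups, Atp5k, Atp5l and Ndufa11 held the NRF1 motif, Ndufs3 and Uqcrh the ETS-type motif and Ndufa9 the YY1 motif. Of these, 3 are shown, with the motif in capitals (for NRF1 both strands match, 1 base apart). It begins 50 bases before the start for Atp5k (chromosome 5, minus strand), 60 bases before it for Ndufa11 (chromosome 17, plus strand) and at base 1 for Ndufs3 (chromosome 2, minus strand), where it lies on the other strand:
Atp5k: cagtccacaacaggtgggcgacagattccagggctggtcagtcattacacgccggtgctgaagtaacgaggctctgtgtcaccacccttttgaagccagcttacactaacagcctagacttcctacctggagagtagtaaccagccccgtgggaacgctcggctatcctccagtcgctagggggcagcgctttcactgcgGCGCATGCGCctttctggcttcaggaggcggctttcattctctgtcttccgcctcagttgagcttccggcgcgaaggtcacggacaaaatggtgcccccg
Ndufa11: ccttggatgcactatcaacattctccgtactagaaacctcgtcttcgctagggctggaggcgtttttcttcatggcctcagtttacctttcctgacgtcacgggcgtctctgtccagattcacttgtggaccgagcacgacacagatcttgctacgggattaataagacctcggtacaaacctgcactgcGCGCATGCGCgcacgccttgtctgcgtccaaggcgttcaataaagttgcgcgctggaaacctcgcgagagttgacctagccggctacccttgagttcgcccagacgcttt
Ndufs3: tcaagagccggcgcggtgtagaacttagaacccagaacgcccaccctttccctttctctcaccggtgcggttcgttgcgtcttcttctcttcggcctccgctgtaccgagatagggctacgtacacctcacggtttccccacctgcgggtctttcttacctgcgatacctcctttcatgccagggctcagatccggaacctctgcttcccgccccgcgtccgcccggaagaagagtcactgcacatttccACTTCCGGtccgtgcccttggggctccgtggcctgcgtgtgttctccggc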

How the data were processed

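RNA of 19 mESCs lines was sequenced from stranded poly-A libraries. The deposited values are expected counts per gene from RSEM 1.3.0 (default parameters, which do not use strand), rounded to whole numbers before deposit, from reads the authors aligned with STAR to GRCm39 (per the submitters' processing notes). The human feeders were removed before extraction. Total counts were 33846569 to 48740941 per line (median 41942274), and 0 pairs of libraries were identical.

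Counts were filtered with filterByExpr, scaled by TMM and fitted in edgeR 4.0.16 (R 4.3.3, quasi-likelihood F-test), with embryo (from the labels), or embryo and group (from the study's component plot, not the labels), in the model and p adjusted over all tested genes (Benjamini-Hochberg). A gene was called past 1.5-fold at an adjusted p under 0.05. CPM are counts per 1000000 of the TMM-scaled total. Members, gene lists and cell markers were chosen with earlier results of these data known. Named are the mitochondrial genes, called members (at most 12 per comparison and direction), the highest and lowest nuclear member of each complex, isoform genes, members on chromosome 8, up to 3 called genes per list and pseudogenes of the same symbols; others were chosen after their values were seen. Copies of members were searched with Biopython 1.88. Simulated counts held no embryo or group differences except those put in, and genes were found at an adjusted p under 0.05 without the fold threshold. The group test found 31 of 50 genes made to differ 1.5-fold and 14 of 50 made to differ 1.25-fold (18908 genes). The test of embryos 2 and 1 found 25 of 50 and 5 of 50 in the same order (18754 genes). Alternatives were DESeq2 1.42.0, RLE factors, other filters, covariates and gene sets, line sets and a replicate block.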

Additional observations from a re-analysis of the deposited data

Results flagged for a closer look

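In each embryo of 7 lines, in embryo 1 and in group II, the highest and lowest line of 37 quantities (sums and members) was compared with the rest, and 11 of 148 such checks found a line far from the others, where chance flags about 1 in 20 groups. Line 3.2 stood apart in the nuclear complex II sum, at 649 CPM, with the next line at 535 CPM in embryo 3 and 543 CPM in group II. Line 2.2 stood apart in embryo 2 for mt-Co2 (477 CPM, next 257 CPM) and mt-Nd6 (279 CPM, next 165 CPM). Line 3.4 stood apart in embryo 3 for 5 genes: Cox7b2 (9.73 CPM, next 1.03 CPM), Atp5g3 (286 CPM, next 241 CPM) and Uqcrh (107 CPM, next 96.7 CPM) were high, and mt-Nd6 (135 CPM, next 194 CPM) and Cox7a1 (3.51 CPM, next 4.53 CPM) were low. Cox6b2 was low in line 3.6 (13.3 CPM, next 21.7 CPM) and Ndufa4 in line 3.7 (58.2 CPM, next 91.0 CPM).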

How the results depend on the processing

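The counts of members past 1.5-fold were 3 for embryo 2 against embryo 1 and 0 for the other comparisons. Without the fold threshold they were 6 for embryo 2 against 1, 2 for embryo 3 against 1, 4 for embryo 3 against 2 and 21 between the groups. Leaving out lines 1.5 and 2.4, whose library numbers stand outside the run of the others, gave 1, 1 and 2 for the embryo comparisons in the same order. For embryo 2 against 1 that gene was mt-Nd3, and mt-Nd6, Cox7b2 and Ndufb11b were all no longer called past 1.5-fold. Leaving out the 5 lines with a chromosome shift gave 1 for embryo 3 against 1 and, like a fit of the embryos alone, 2 for embryo 2 against 1, without Ndufb11b. For embryo 3 against 2, DESeq2, the group as covariate and a fit of those embryos alone each gave 2. Without the low-count filter 1 member (mt-Atp6) passed the interaction test. Omitting single lines gave 1 to 5 for embryo 2 against 1, 0 to 1 for embryo 3 against 1, 0 to 2 for embryo 3 against 2, 0 to 1 between the groups and 0 to 1 for the interaction. Of the 19 members higher and 2 lower in group I, omissions gave 12 (without line 1.5) to 24 higher and 1 to 2 lower, leaving out the 5 lines gave 1 and 0, and the fibroblast covariate gave 0 and 0. The cause of these changes was not tested.

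Adding the copies, an alternative chosen after seeing the data, moved the mitochondrial sum to 4.52% and no count of calls. RLE factors, totals without mitochondrial genes, the 1 CPM filter and protein coding genes alone kept every count past 1.5-fold. Members named above as passing by edgeR with all lines, between embryos or between the groups, kept their direction in the alternatives. Genes that did not pass could change direction. With the copies added, mt-Co3 went from 0.73 to -0.08 for embryo 2 against 1 and from -0.33 to 0.04 between the groups (log2 fold change). For embryo 2 against 1, mt-Nd4l went from 0.32 to -0.05. The members' median for embryo 3 against 1 went from -0.04 to 0.04 without line 1.1. Same-numbered lines did not deviate together (17 pairs, r between -0.451 and 0.322, 6 over 0.1), and the numbers do not pair the lines. A replicate block of line number gave 2, 0 and 0 calls between embryos, 1 between the groups (mt-Nd1), and 16 members higher and 0 lower in group I without the fold threshold. Cox6a2, Cox8b and Cox8c, with 0 counts in some lines, and Cox7b2, with as few as 12, are limited by depth.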

Other observations

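Non-coding genes with the symbols of members were also counted. Of 17 such pseudogenes 5 passed the filter, 2 had a mean over 1 CPM (Ndufb4c with 45.6 CPM and Ndufa12-ps with 8.38 CPM), and 0 of the 5 passed among the embryos at an adjusted p under 0.05 by edgeR. Among the nuclear members 14 shared over 10% of their 51-base stretches with other genes, and Uqcrb (35.3%) and Cox5b (33.9%) shared over 30%, so that reads could have been split between copies. mt-Nd6 stood at 21.2% of mt-Cytb in line 1.5 and at 3.2 to 7.94% in the other lines.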
